A study of Mus musculus with 6 samples.

Results

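The genes described here are 10 transcripts of vascular endothelium, Pecam1, Cdh5, Kdr, Tek, Tie1, Flt1, Eng, Emcn, Cldn5 and Esam, measured by RNA-Seq in embryonic mouse diaphragm. They were taken by name as general endothelial genes, not by a cut on their values, but with earlier results of these data known. They were 10 of the 23073 genes with a value in every library. The 6 libraries came from diaphragm muscle at E14.75, with 2 biological replicates each of erbB3 WT, erbB3 KO and Wnt1-Ribotag mice. WT and KO libraries were made from total RNA of whole muscle, and by the labels the KO muscle lacked Schwann cells. Wnt1-Ribotag libraries carried the genotype Wnt1-Cre, Ribotag, erbB3 WT and were made from RNA bound to ribosomes that were precipitated with an antibody against the hemagglutinin (HA) tag. The tag sits on the ribosomal protein Rpl22 and appears only after Cre recombination, which Wnt1-Cre drives in the neural crest lineage, including Schwann cells. By the methods of the study, each Ribotag library pooled 4 diaphragms carrying Cre and Ribotag, and whole litters were homogenized, so that untagged tissue of Cre-negative littermates was in the same homogenate. WT libraries are called WT 5 and WT 6, after the numbers in their titles, and the others KO 1, KO 2, Ribotag 1 and Ribotag 2.

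Endothelial cells line blood and lymphatic vessels, and those of the limb and trunk muscles derive from mesoderm, outside the neural crest. They sense vascular endothelial growth factor (VEGF) through Kdr and Flt1 and angiopoietins through Tek, and are joined to each other by the cadherin Cdh5, the claudin Cldn5 and immunoglobulin-like adhesion molecules. An endothelial transcript therefore belongs to the cells whose ribosomes Wnt1-Cre is not known to tag, and the comparison of Ribotag with WT libraries asked how far such transcripts were depleted by the precipitation. The comparison of KO with WT libraries asked whether muscle without Schwann cells held a different level of them.

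Values are RPKM as deposited, that is, reads normalized to gene length and to the depth of each library. Depth, derived from the value that 1 read gives in microRNA genes, lay between 100178863 and 230216660 reads per library. All 10 genes stood above the floor of the files in all 6 libraries, and the lowest value was 0.885 RPKM for Flt1 in KO 2, while 1 read was worth at most 0.00705 RPKM for any member in any library. The genotype was checked on Schwann cell genes. Sox10, the glial transcription factor, was at 0.00854 and 0.0178 RPKM in KO 1 and KO 2, 2.89 and 2.16 in WT 5 and WT 6, and 15.5 and 32.2 in Ribotag 1 and Ribotag 2. Erbb3 itself read 21.5 and 11.9 RPKM in KO 1 and KO 2 against 16.5 and 15.8 in WT 5 and WT 6, and because the position of the mutation in the gene is not given in the sources used here, its level did not check the genotype.

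Promoter sequences are shown for Tie1 and Tek, the related receptors of the angiopoietin pathway, because their windows hold different letters of the motifs searched. The sequences are from RefSeq on GRCm38.p6, read 5′ to 3′ on the strand of the gene, from 250 bases before the start to 50 bases after it. Capitals mark AGGAAG, a core of sites for ETS factors, and GATAAG, a core of sites for GATA factors, on either strand.
Tie1, chr4:118489800-118490099, minus strand: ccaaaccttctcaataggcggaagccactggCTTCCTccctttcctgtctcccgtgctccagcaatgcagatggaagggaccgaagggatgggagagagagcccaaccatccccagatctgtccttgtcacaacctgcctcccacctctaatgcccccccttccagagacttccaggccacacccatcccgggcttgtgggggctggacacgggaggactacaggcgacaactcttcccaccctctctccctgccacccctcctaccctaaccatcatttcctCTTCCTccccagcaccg
Tek, chr4:94739039-94739338, plus strand: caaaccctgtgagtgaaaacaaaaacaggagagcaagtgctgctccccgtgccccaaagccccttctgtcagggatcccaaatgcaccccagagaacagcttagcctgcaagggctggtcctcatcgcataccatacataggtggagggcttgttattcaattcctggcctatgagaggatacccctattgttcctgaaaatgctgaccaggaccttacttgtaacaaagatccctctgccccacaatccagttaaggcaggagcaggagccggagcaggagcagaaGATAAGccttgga
RefSeq windows were matched for 7 of the 10 members, and Pecam1, Cdh5 and Esam were not among them. AGGAAG was in the windows of 4 of 7 members (Eng, Emcn, Tie1 and Flt1, each with 2 copies), against 35.4% of 32851 windows of that length. GATAAG was in the window of 1 of 7, Tek, against 7.44% of all windows, and ACAATG, a core of SOX factor sites, was in 0 of 7 against 12.6%. A match of these letters is a description of the window and not a site of binding.

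In WT muscle the members spanned a range of levels, and RPKM, being per length, allowed them to be ordered. Cdh5, the cadherin of endothelial junctions, stood highest at 13.3 ± 1.53 RPKM (SD, n = 2), followed by Eng, a co-receptor for transforming growth factor β family ligands, at 12.0 ± 1.12 and Pecam1, an adhesion molecule of endothelium and some blood cells, at 10.4 ± 0.304. Kdr, the main signalling receptor for VEGF, read 9.70 ± 1.32 and Cldn5, the endothelial tight junction protein, 6.65 ± 0.369. Tie1, Esam, Emcn, Tek and Flt1 followed in that order, down to 1.76 ± 0.174 for Flt1, a VEGF receptor that also acts as a decoy. In WT muscle, Cdh5 and Eng overlapped in range, as did Pecam1 and Kdr, and the other neighbours in the order did not overlap. In the KO libraries the order began with Pecam1 at 12.4 ± 0.369 and Cdh5 at 10.8 ± 5.11, and only Esam with Tek and Tek with Flt1 were neighbours whose ranges were apart. In the Ribotag libraries Eng, at 9.51 ± 0.927, and Cdh5, at 9.11 ± 2.33, stood at the top, and the ranges were apart only between Pecam1 and Emcn and between Tek and Flt1. Flt1 was the lowest member in all 3 groups by its mean.

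**Figure D1:**
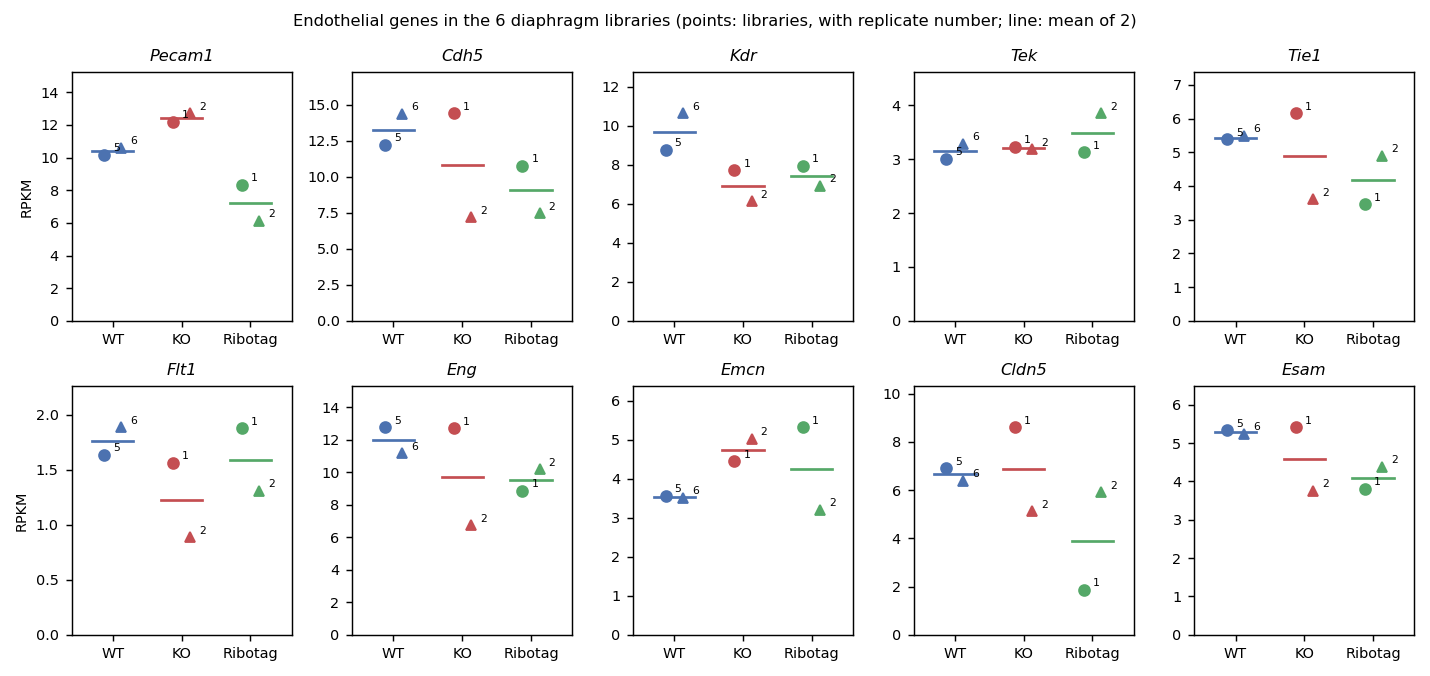
RPKM of the 10 endothelial genes (vertical axes, linear from 0) in each library of WT, KO and Wnt1-Ribotag muscle, with the replicate number beside each point and a line at the mean of 2 libraries. KO 2 lies far below KO 1 for Cdh5, Eng and Tie1, and Cldn5 is lowest in Ribotag 1 at 1.86 RPKM.

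Ribotag libraries held all 10 endothelial transcripts, with group means between 58.4% of the WT mean for Cldn5 and 120.2% for Emcn. The summed RPKM of the 10 genes was 55.3 and 54.2 in Ribotag 1 and Ribotag 2 against 69.8 and 72.6 in WT 5 and WT 6. The median log2 fold change of the members was -0.35, against -0.05 over all genes tested, and 8 of 10 were lower. By limma with Benjamini-Hochberg adjustment over 14418 genes, 0 of 10 members passed an adjusted p of 0.05, and 0 passed an unadjusted p of 0.05. That test called 0.00694% of all genes after adjustment, a single gene, and 19.5% before it. In bulk samples of this kind, fewer cells of a type and less RNA per cell cannot be told apart. Ribotag and WT libraries also differed in preparation, RNA from precipitated ribosomes against total RNA, and preparation and cell lineage cannot be told apart in this comparison.

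Receptors of growth factors had log2 fold changes between -0.36 and 0.12 in Ribotag against WT muscle. Kdr read 7.94 and 6.91 RPKM in Ribotag 1 and Ribotag 2 against 8.76 and 10.6 in WT 5 and WT 6, so that the groups did not overlap, with a log2 fold change of -0.36 (95% interval -0.86 to 0.14, adjusted p = 0.368 by limma). Flt1 read 1.88 and 1.31 against 1.64 and 1.88, with ranges that overlapped and a log2 fold change of -0.12 (-0.83 to 0.58, adjusted p = 0.830 by limma). The VEGF receptors thus had intervals that included no change and lay above a 2-fold decrease. Tek, the angiopoietin receptor, read 3.13 and 3.85 against 3.01 and 3.29, and its log2 fold change was 0.12 (-0.43 to 0.68, adjusted p = 0.779 by limma). Tie1, the receptor related to Tek that forms complexes with it, read 3.46 and 4.89 against 5.39 and 5.48, apart from WT, with a log2 fold change of -0.36 (-0.95 to 0.22, adjusted p = 0.430 by limma). Eng read 8.86 and 10.2 against 12.8 and 11.2, also apart, with -0.32 (-0.78 to 0.15, adjusted p = 0.396 by limma). Of the 5 receptors, Kdr, Tie1 and Eng were lower in both Ribotag libraries than in both WT libraries, as were 31.0% of all genes, and Flt1 and Tek overlapped.

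Among adhesion and surface genes, Cdh5 read 10.8 and 7.46 RPKM in Ribotag 1 and Ribotag 2 against 12.2 and 14.4 in WT 5 and WT 6, a log2 fold change of -0.54 (95% interval -1.14 to 0.07, adjusted p = 0.295 by limma). Pecam1 read 8.33 and 6.15 against 10.2 and 10.6, a log2 fold change of -0.51 (-1.05 to 0.03, adjusted p = 0.278 by limma). For these genes the groups were apart and the interval reached past a 2-fold decrease. Esam, an adhesion molecule of endothelial tight junctions, read 3.81 and 4.38 against 5.34 and 5.24, a log2 fold change of -0.34 (-0.82 to 0.15, adjusted p = 0.388 by limma). Emcn, a sialomucin of capillary and venous endothelium, read 5.32 and 3.20 against 3.57 and 3.52, so that WT values lay between the Ribotag values, and its log2 fold change was 0.20 (-0.51 to 0.91, adjusted p = 0.724 by limma). Cldn5 read 1.86 and 5.91 against 6.91 and 6.39, a log2 fold change of -0.88 (-2.12 to 0.37, adjusted p = 0.380 by limma). Its interval was the widest of the 10, and Ribotag 1 and Ribotag 2 differed by 1.44 on the log2 scale.

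Ribotag values lay below WT values without overlap for 7 of the 10 members (Cdh5, Tie1, Pecam1, Eng, Esam, Kdr and Cldn5), which 31.0% of all genes tested also did. None of the 10 was at least 2-fold lower in all 4 pairs of a Ribotag and a WT library, as were 0.825% of all genes. The 95% interval lay wholly above a 2-fold decrease for 7 members (not for Cdh5, Pecam1 and Cldn5), against 73.5% of all genes. Calls depended on Ribotag libraries. Without Ribotag 1, Cdh5 (log2 fold change -0.79, adjusted p = 0.0179 by limma) and Pecam1 (-0.71, 0.0164) passed as lower. Without Ribotag 2, Cldn5 (-1.60, adjusted p = 0.00232 by limma) and Tie1 (-0.58, 0.0237) passed as lower and Emcn (0.52, 0.0349) as higher. In these fits the lone Ribotag library was assumed to vary like the WT pair, and the members that passed were not shared between them. Without Ribotag 2 the median of the members differed from that of all genes by -0.15, against -0.30 with all libraries. The same fits called 31.0% of all genes without Ribotag 1 and 41.8% without Ribotag 2, so that 2 and 3 of 10 members were no more than the share of all genes.

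**Figure D2:**
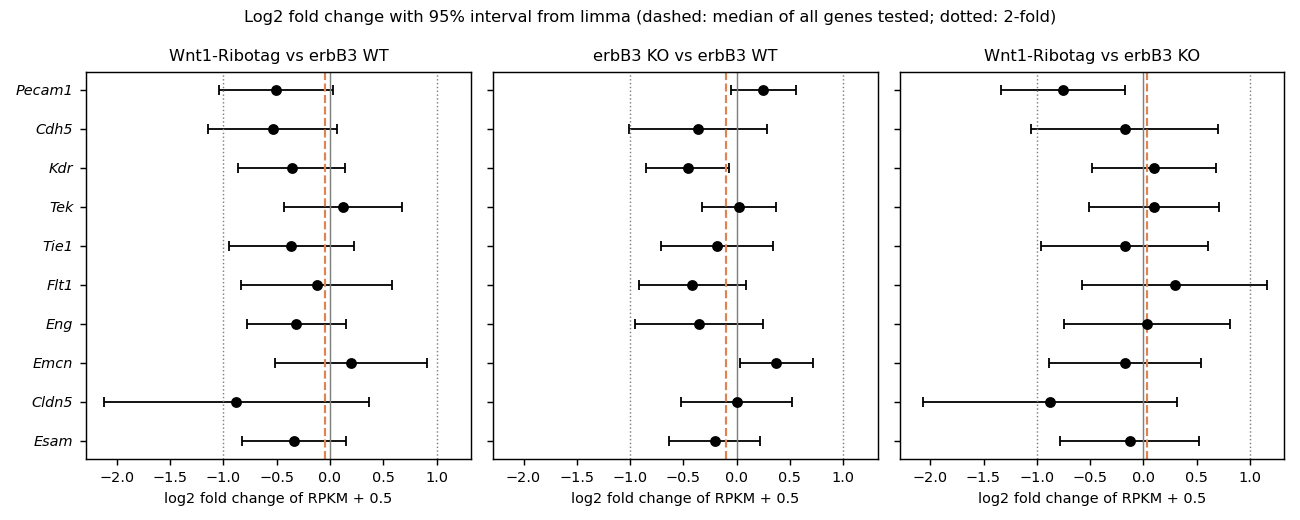
Log2 fold changes of RPKM + 0.5 (horizontal axes) with 95% intervals from limma for the 10 genes in the 3 comparisons, with the median of all genes tested dashed and 2-fold changes dotted. In Wnt1-Ribotag against WT, 8 of 10 points lie below 0, and intervals include 0 for all 10.

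KO muscle had endothelial transcripts on either side of the WT level. Of the 10 members, 6 were lower and 4 higher in KO than in WT libraries, with a median log2 fold change of -0.20 against -0.10 over all genes. By limma over 14052 genes, 0 of 10 passed an adjusted p of 0.05, where 0.171% of all genes passed, and 2 passed an unadjusted p of 0.05, where 12.0% did. The comparison shares its WT libraries with the one above. Summed RPKM of the 10 genes was 76.4 in KO 1 and 54.3 in KO 2, above and below both WT libraries.

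Pecam1, Emcn, Kdr and Flt1 were the members whose KO and WT values did not overlap. Pecam1 read 12.2 and 12.7 RPKM in KO 1 and KO 2 against 10.2 and 10.6 in WT 5 and WT 6, a log2 fold change of 0.25 (95% interval -0.05 to 0.55, adjusted p = 0.451 by limma). Emcn read 4.45 and 5.03 against 3.57 and 3.52, a log2 fold change of 0.37 (0.03 to 0.72, unadjusted p = 0.0380, adjusted p = 0.399 by limma). These were the 2 members whose KO values lay wholly above WT, as did 12.7% of all genes. Kdr read 7.73 and 6.13 against 8.76 and 10.6, a log2 fold change of -0.46 (-0.85 to -0.07, unadjusted p = 0.0267, adjusted p = 0.385 by limma). Flt1 read 1.56 and 0.885 against 1.64 and 1.88, a log2 fold change of -0.42 (-0.92 to 0.08, adjusted p = 0.451 by limma). The VEGF receptors were the 2 members whose KO values lay wholly below WT, as did 37.4% of all genes. Tek, at 3.24 and 3.18 in KO 1 and KO 2, had a log2 fold change of 0.02 (-0.32 to 0.37), and Cldn5, at 8.60 and 5.11, of 0.00 (-0.52 to 0.52).

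The remaining members were divided between the KO replicates. Cdh5 read 14.4 in KO 1 and 7.18 in KO 2, with a log2 fold change of -0.36 (95% interval -1.01 to 0.29). Eng read 12.7 and 6.72, with -0.35 (-0.95 to 0.25). Tie1 read 6.15 and 3.60, with -0.19 (-0.71 to 0.34), and Esam 5.41 and 3.76, with -0.21 (-0.63 to 0.22). For Tie1 and Esam, KO 1 lay above both WT libraries and KO 2 below both, and for Cdh5 KO 1 was about level with WT 6 and KO 2 below both. The median of the 10 was 0.10 without KO 2 and -0.49 without KO 1, so that its direction rested on which KO library was kept. It was -0.41 when libraries were scaled by the skeletal muscle list, which moved the median of all genes to -0.31, and the difference of the members from all genes was -0.09 as deposited and -0.10 after that scaling. None of the 10 was at least 2-fold lower in all 4 pairs of KO and WT libraries, as were 0.399% of all genes, and the 95% interval lay above a 2-fold decrease for all but Cdh5, against 96.1% of all genes.

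Differences between replicates were larger for the members in KO and Ribotag than in WT muscle. The median size of the difference between replicates over the 10 members was 0.11 in WT, 0.40 in Ribotag and 0.52 in KO libraries on the log2 scale, against 0.13, 0.39 and 0.19 over all genes. Over all genes, differences between replicates varied with the base composition of the transcripts in KO and WT libraries, and with transcript length in all 3 groups. Spearman's rho with length over 13892 genes was -0.30 in KO, -0.30 in Ribotag and 0.37 in WT libraries. KO 2 minus KO 1 was 0.16 for Emcn, whose longest transcript has 40.7% GC, and -0.02 for Tek at 47.1%. It was -0.96 for Cdh5 at 52.2%, -0.87 for Eng at 57.4%, -0.70 for Tie1 at 57.6% and -0.70 for Cldn5 at 60.5%. Spearman's rho between GC content and this difference was -0.77 over the 10 members and -0.35 over 13892 genes, which are points from the same libraries and no independent replicates. For WT 6 minus WT 5 it was -0.52 over the members and -0.41 over all genes, and for Ribotag 2 minus Ribotag 1 it was 0.64 and 0.01. The median of KO 2 minus KO 1 was 0.05 over the genes in the lowest of 5 equal bins of GC content and -0.22 in the highest. With the trend of GC content and length removed from each library, the median of KO against WT was -0.02 over the members and -0.0023 over all genes. Both trends were removed together, and the part of base composition or of length in the KO differences was not tested further.

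**Figure D3:**
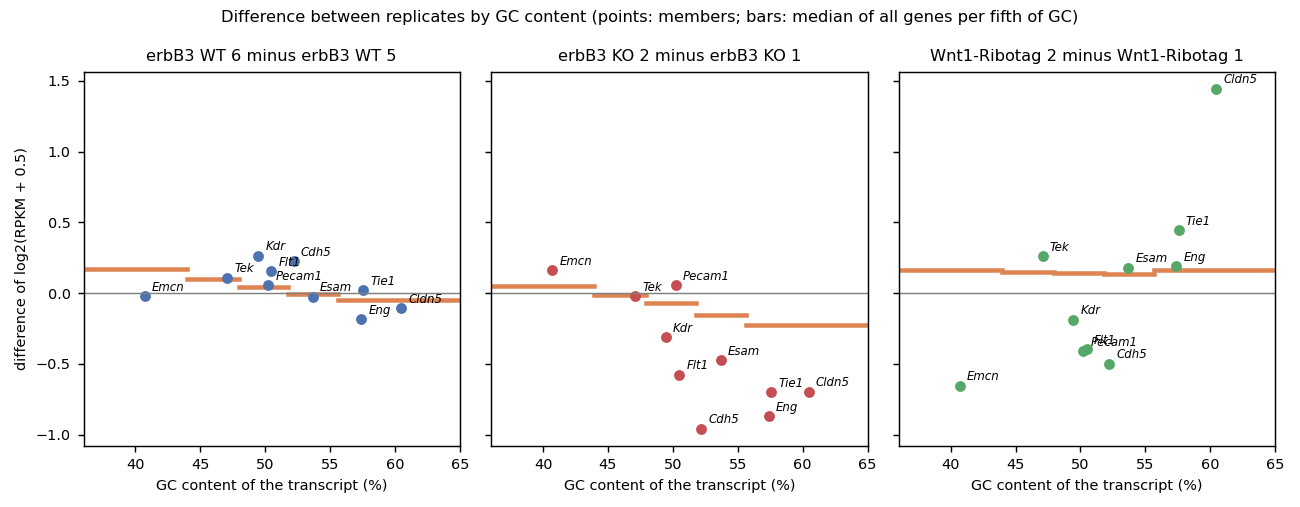
Difference between the replicates of each group in log2(RPKM + 0.5) (vertical axis) against GC content of the longest transcript in percent (horizontal axis) for the 10 genes, with bars at the median of all genes in each of 5 equal bins of GC content. In KO muscle the members run from 0.16 for Emcn to -0.96 for Cdh5, and Cldn5 stands at 1.44 between the Ribotag libraries.

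Ribotag and KO libraries, the third pair of groups, share no library in their contrast but each serves in a comparison above. The median of the members was -0.15, against 0.04 over all genes, and 0 of 10 passed by limma over 14325 genes, where 1.19% of all genes passed. At an unadjusted p of 0.05, 1 member passed, against 19.3% of all genes. Pecam1, at 8.33 and 6.15 RPKM in Ribotag against 12.2 and 12.7 in KO muscle, was that member and the only 1 of the 10 whose groups did not overlap with Ribotag lower, as did 24.4% of all genes, with a log2 fold change of -0.76 (95% interval -1.34 to -0.17, adjusted p = 0.181 by limma). Without Ribotag 1 it passed (-0.96, adjusted p = 0.0189 by limma), and without Ribotag 2 Cldn5 did (-1.60, 0.00886), in fits that called 17.8% and 26.0% of all genes and assumed that the lone Ribotag library varied like the KO pair. None of the 10 was at least 2-fold lower in all 4 pairs, as were 0.607% of all genes, and the 95% interval lay above a 2-fold decrease for 7 (not for Cdh5, Pecam1 and Cldn5), against 75.0% of all genes. The median of the members was 0.14 without KO 1, -0.38 without KO 2 and 0.11 with scaling by the skeletal muscle list, which moved the median of all genes to 0.29.

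Other endothelial genes, taken from lists of transcription factors, receptors, and junction and surface genes, had log2 fold changes in either direction between Ribotag and WT muscle. Medians were 0.09 for 23 transcription factors, 0.03 for 27 receptors and signalling genes, and -0.06 for 28 junction and surface genes, against -0.05 over all genes, and none passed an adjusted p of 0.05. Among the transcription factors, 11 were lower and 12 higher. Meox2 read 9.44 and 14.5 RPKM in Ribotag 1 and Ribotag 2 against 19.8 and 20.3 in WT 5 and WT 6, and Ets1, a factor of the ETS family, 18.2 and 15.6 against 11.3 and 13.9. Erg and Fli1, of the same family and chosen after their values were seen, had lower means in Ribotag. Erg read 2.88 and 1.49 against 2.62 and 3.59, and Fli1 1.21 and 3.11 against 3.29 and 4.45. Among the receptors, Nrp1, a co-receptor for VEGF and semaphorins, read 12.0 and 14.1 against 12.6 and 13.0, and Ephb4, the venous ephrin receptor, 23.8 and 20.0 against 33.8 and 33.3. In the same lists the highest junction and surface gene by RPKM, Cav1 of caveolae, read 119 and 83.0 against 137 and 169.

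Ednrb and Tspan18 stood apart among the receptor genes. Ednrb, an endothelin receptor that neural crest cells also express, read 36.4 and 73.5 RPKM in Ribotag 1 and Ribotag 2, 8.13 and 10.5 in WT 5 and WT 6, and 4.29 and 5.16 in KO 1 and KO 2. Tspan18, a tetraspanin, read 22.5 and 24.3 in Ribotag, 7.76 and 6.66 in WT and 5.13 and 3.27 in KO libraries. Both were at least 2-fold higher in all 4 pairs of Ribotag and WT libraries, as were 1.51% of all genes, without passing the adjusted test there (0.148 for Ednrb and 0.134 for Tspan18 by limma). Against KO muscle both rose, by 3.33 for Ednrb and 2.37 for Tspan18 on the log2 scale (adjusted p = 0.0148 and 0.0192 by limma). Clec14a, an endothelial lectin chosen after its values were seen, was the only junction and surface gene 2-fold higher in all 4 pairs with WT, at 6.24 and 13.1 RPKM against 2.76 and 2.68.

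Lymphatic endothelial genes had a lower median than the members between Ribotag and WT muscle. It was -0.60 over 6 genes tested, of which 5 did not overlap with Ribotag lower, as did 31.0% of all genes tested, and none passed. Pdpn, a lymphatic glycoprotein that mesothelium also carries, read 11.6 and 14.4 RPKM in Ribotag 1 and Ribotag 2 against 26.7 and 22.8 in WT 5 and WT 6, and Lyve1, a hyaluronan receptor of lymphatic endothelium and some macrophages, 8.17 and 7.53 against 10.7 and 11.9. Prox1, the lymphatic transcription factor, read 1.54 and 2.41 against 3.18 and 3.24. In KO against WT muscle the median of these 6 genes was 0.01.

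Of the ligands of vascular receptors, 19 were tested and none passed in Ribotag or KO against WT muscle. Their median was 0.08 in Ribotag against WT, where that of all genes was -0.05, and -0.25 in KO against WT, where that of all genes was -0.10. Vegfa, the ligand of Kdr and Flt1, read 15.9 and 26.3 RPKM in Ribotag 1 and Ribotag 2, 16.3 and 21.4 in WT 5 and WT 6, and 16.1 and 12.5 in KO 1 and KO 2. Vegfb, a ligand of Flt1, read 32.1 and 36.9 in Ribotag, 24.9 and 23.5 in WT and 24.6 and 19.4 in KO libraries. Angpt1, the activating ligand of Tek, chosen after its values were seen as the ligand at least 2-fold lower in all 4 pairs of Ribotag and KO libraries, read 1.40 and 1.39 in Ribotag, 3.11 and 4.02 in WT and 3.36 and 3.75 in KO libraries.

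Mural cells, the pericytes and smooth muscle around the vessels, were read beside the endothelial genes. Their list had a median of -0.41 in Ribotag against WT muscle over 15 genes, and none passed. Acta2, smooth muscle actin, read 168 and 117 RPKM in Ribotag 1 and Ribotag 2 against 286 and 296 in WT 5 and WT 6, and Pdgfrb, a receptor of pericytes and fibroblasts, 13.8 and 12.1 against 20.4 and 21.9. Of the 15, 4 had higher values in Ribotag, and Rgs5 and Ndufa4l2, a pericyte gene chosen after its values were seen, were at least 2-fold higher in every pair of Ribotag and WT libraries, as were 1.51% of all genes. Ndufa4l2 read 7.89 and 19.3 RPKM against 2.45 and 3.15. Rgs5, also a pericyte gene, stood at 20.4 and 15.1 against 3.79 and 4.47 in WT and 4.90 and 4.75 in KO libraries, and rose against KO muscle by 1.76 on the log2 scale (adjusted p = 0.0319 by limma). In KO against WT muscle the median of the 14 mural genes that pass on KO values alone was -0.19.

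The same scale was read for cell types that Wnt1-Cre does and does not mark. Of the 22 Schwann and Wnt1-Cre lineage genes listed, 20 passed the filter, 4 of them with a WT mean below 0.5 RPKM and so only through their Ribotag values. Over the 16 genes that pass on WT values alone, the median was 2.11, and 9 were at least 2-fold higher in every pair of Ribotag and WT libraries, as were 1.51% of all genes. By limma, none of the 20 passed an adjusted p of 0.05 in Ribotag against WT either, and the smallest was 0.130. Fabp7, a fatty acid binding protein of glial precursors, read 35.2 and 134 RPKM in Ribotag 1 and Ribotag 2, 2.998 and 3.93 in WT 5 and WT 6, and 0.393 and 0.372 in KO 1 and KO 2. Among lists outside the lineage, the median of Ribotag against WT was 0.01 over 24 skeletal muscle genes, -0.29 over the 15 liver genes that pass on WT values alone, -0.26 over 16 erythroid genes, -0.49 over 16 connective tissue and mesothelium genes and -0.85 over 14 macrophage genes, and none of these genes passed. The endothelial median of -0.35 lay inside that range. C1qc, a complement gene of macrophages, was the only gene of these lists at least 2-fold lower in all 4 pairs, as were 0.825% of all genes. It read 11.7 and 12.6 RPKM against 30.1 and 25.7. Myh8, a developmental myosin of the muscle list chosen after its values were seen, exceeded 2-fold in each of the 4 pairs, with Ribotag higher. Actc1, an actin of embryonic muscle, read 716 and 679.9 against 723 and 661. The summed RPKM of the muscle list was 4805 and 4613 in Ribotag 1 and Ribotag 2, 5342 and 4417 in WT 5 and WT 6, and 8810.3 and 6274 in KO 1 and KO 2, and the part of muscle RNA in the endothelial values was not tested.

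**Figure D4:**
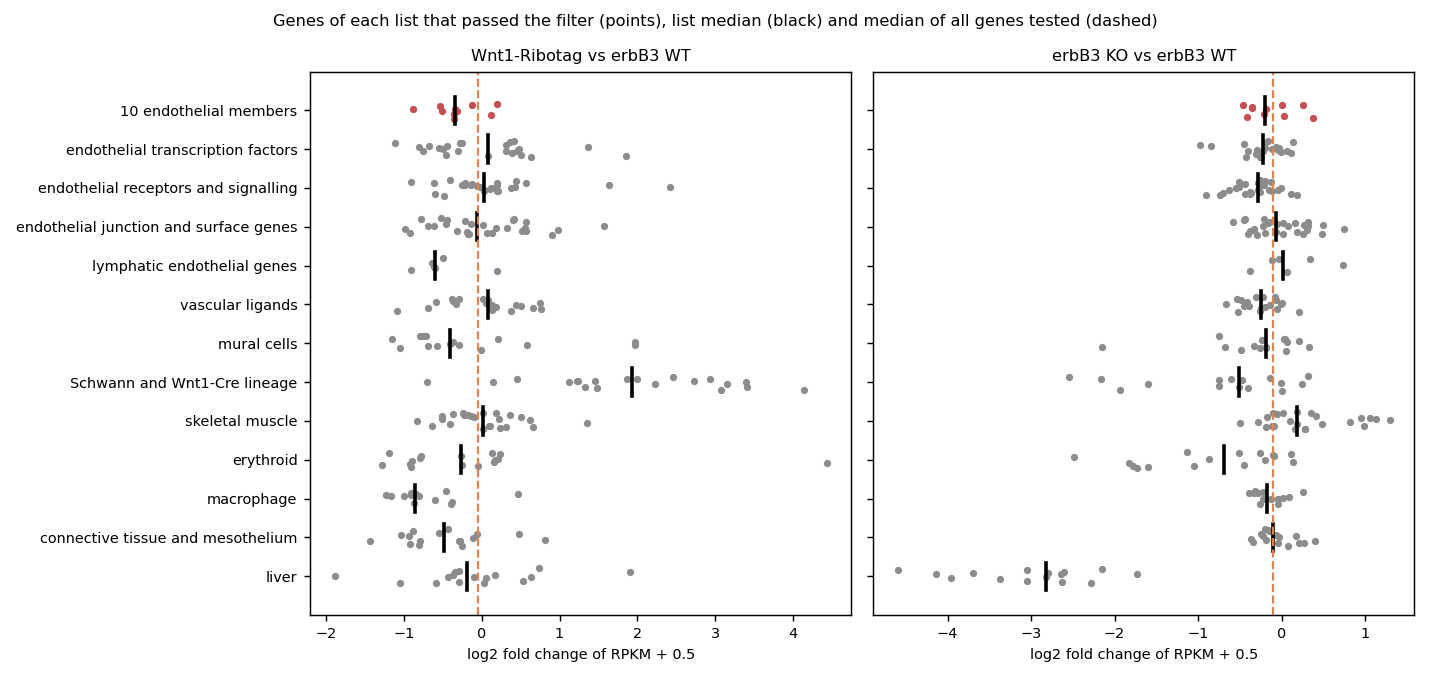
Log2 fold changes of RPKM + 0.5 (horizontal axes) of the genes that passed the filter in each list, for Wnt1-Ribotag against WT and KO against WT, with list medians in black and the median of all genes tested dashed. The 10 endothelial members have a median of -0.35 on the left and -0.20 on the right, and the skeletal muscle list has 0.01 and 0.18. In the Schwann, mural, erythroid and liver lists some genes passed the filter only through the higher of the compared groups.

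In KO muscle, markers of other tissues differed as well. Of the 16 liver genes listed, 15 passed the filter, 7 of them with a KO mean below 0.5 RPKM and so only through their WT values. The 8 that pass on KO values alone were at least 2-fold lower in all 4 pairs of KO and WT libraries, as were 0.399% of all genes, with a median of -3.53. By limma, 5 of the 15 tested passed the adjusted threshold as lower, where 0.121% of all genes did. Since 7 of the 15 entered only through their WT values, the filter favoured this count. Alb, the serum albumin of liver, read 6.24 and 3.57 RPKM in KO 1 and KO 2 against 174 and 48.2 in WT 5 and WT 6. Medians were -0.26 over the 11 erythroid genes that pass on KO values alone, -0.18 over 14 macrophage genes, -0.11 over 16 connective tissue and mesothelium genes and 0.18 over 24 skeletal muscle genes. The Schwann and Wnt1-Cre lineage list had a median of -0.31 over the 10 genes that pass on KO values alone. Fabp7 and Sox10 passed the filter only through their WT values, so that a lower KO level was built into their selection and no test is given for them. The part of these differences in the endothelial values was not tested. The other endothelial lists had medians of -0.23 over 23 transcription factors, -0.28 over 27 receptors and -0.06 over 28 junction and surface genes in the same comparison, and none of their genes passed.

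Genes with a pattern like that of the members were sought over the 6 libraries, by Pearson's r with the mean of the 10 centred log2 values. Among 1983 genes that varied by an SD of at least 0.5, the 8 highest were Thbd, Col6a2, Emilin3, Ptk7, Mir432, Dchs1, Eln and Jph1, with r from 0.974 to 0.870. Thbd, thrombomodulin, a thrombin receptor on endothelium and a gene of the junction and surface list, read 13.9 and 6.05 RPKM in KO 1 and KO 2, 5.95 and 5.58 in Ribotag 1 and Ribotag 2, and 9.73 and 13.3 in WT 5 and WT 6. Its values were high in KO 1 and WT 6 and low in KO 2 and in both Ribotag libraries. Within the members, r was highest for Tie1 with Esam, at 0.96, and lowest for Pecam1 with Tek, at -0.70. The points of each correlation are 6 libraries of 3 groups that differ in depth and base composition, which all genes of a library share, and r is given as a description.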

How the data were processed

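RNA-Seq of 6 diaphragm libraries was analysed, with groups and replicate numbers taken from the labels. The authors deposited RPKM per gene, and beside each a mark that is 1 where the gene is at the floor value and 0 elsewhere. The submitters' processing notes name STAR and mm9, and the counter and annotation are not given in the sources used here. Symbols came from GENCODE M21 (21583 of 23073 identifiers matched). Whole read counts were not used. From the depth and the longest transcript, member values stood for at least 323 reads, a counting error of at most 5.57%. RPKM were transformed to log2(RPKM + 0.5), which understates changes of low genes. Each comparison was fitted in limma 3.58.1 (lmFit, eBayes with trend, R 4.3.3) on its 4 libraries and the genes averaging at least 0.5 RPKM there, with 2-sided tests, Benjamini-Hochberg adjustment over all genes and a threshold of 0.05. The fits were run on simulated data with independent noise for each gene. They called 93%, 100% and 73% of inserted 2-fold changes in Ribotag against WT, KO against WT and Ribotag against KO. Deviations shared by the genes of a library were not simulated, so that these shares do not measure power in these data. P-values measure the spread between libraries of 2 per group. The genes and lists were chosen with earlier results of these data known. Named were the 10 members, from each list the 4 genes with the highest mean RPKM and those past the threshold (at most 6), of which examples are given, and the 8 genes most like the members. Ccl21a, Ahsp and Aif1, of the lists, were not matched, and Flt4 and Vtn are each in 2 lists. Transcript GC content and length are those of the longest GENCODE M21 transcript. Alternatives changed the pseudocount, filter, scaling, model and libraries kept.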

Additional observations from a re-analysis of the deposited data

How the results depend on the processing

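Over the 10 settings that kept all libraries (other pseudocounts, filters and scalings, a fit without trend, a fit of all 6 libraries and, chosen after seeing the data, removal of the trend of GC content and length), 0 members passed in Ribotag against WT or in KO against WT. The median of the members in Ribotag against WT lay between -0.37 and -0.24 there. It was -0.29 with scaling by median ratios, -0.31 with scaling by the skeletal muscle list and -0.24 without the GC and length trend. These moves exceeded 0.038, the spread between replicates of the median over the members, in which opposite differences of single genes cancel. The median size of the difference of single members between Ribotag replicates was 0.40. All genes moved with the scalings, and the difference of the members from all genes was -0.30 as deposited, -0.29 and -0.30 with these scalings and -0.25 without the trend. It was -0.15 without Ribotag 2, and -0.32 to -0.26 without 1 of the other libraries. Leaving out 1 library gave -0.35 to -0.23, 0 to 3 members past the threshold and 0 to 1 members at least 2-fold lower in all pairs, where the fits without Ribotag 1 and Ribotag 2 called 31.0% and 41.8% of all genes. In KO against WT, the median was -0.49 to 0.10 when 1 library was left out. Scaling by the muscle list moved the median of all genes in that comparison from -0.10 to -0.31 and of the members to -0.41. In Ribotag against KO, leaving out 1 library gave a median of -0.38 to 0.14, with 0 to 1 members past the threshold (17.8% and 26.0% of all genes without Ribotag 1 and Ribotag 2) and 0 to 1 at least 2-fold lower. With the muscle scaling the median of all genes there was 0.29 and that of the members 0.11. Of the 160 values of members in that comparison over all settings, 24 changed sign, against 3 of 140 in Ribotag against WT and 11 of 140 in KO against WT.

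Ribotag and KO libraries share the replicate numbers 1 and 2, which the labels tie to no common litter, and deviations of same-numbered libraries correlated at 0.168. With the replicate block, the median of the members was -0.15 and 0 passed, while calls over all genes went from 25 lower and 146 higher to 264 lower and 578 higher. With the block and the GC and length trend removed, 0 members passed and the median was -0.13. WT libraries, numbered 5 and 6, have no partner. Depth does not limit the members, all far above the floor, and 2 libraries per group limit the intervals.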
